A study of Homo sapiens with 4 samples.

Results

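The genes described here are 9 that are commonly used as references in quantitative PCR, namely GAPDH, ACTB, HPRT1, TBP, GUSB, PPIA, YWHAZ, TFRC and PGK1. They were chosen by name, and the pseudogenes that carry their names were not counted with them. They are 9 of 58825 gene rows and of 13801 genes with enough counts to be tested, and all 9 were tested. RNA was sequenced from LoVo, a colorectal adenocarcinoma cell line whose MET receptor tyrosine kinase is constitutively active. The MET+ libraries (n = 2 biological replicates) are named in the labels as a GFP control of WT genotype, and the MET-KO libraries (n = 2) come from cells in which MET had been targeted with CRISPR/Cas9, a plasmid conferring puromycin resistance and a GFP plasmid as transfection control. Both were grown in the same medium with serum, and the labels give no further treatment. Knockout cells were grown from single picked clones and selected by western blot, and how many clones the MET-KO libraries represent, or whether the MET+ cells were also a clone, is not given in the sources used here.

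A quantitative PCR result is a ratio, in which the signal of a target is divided by that of a gene taken to be equally abundant in every sample, so any change in the reference passes, inverted, into the result. The usual references come from unrelated pathways: GAPDH and PGK1 catalyse consecutive steps of glycolysis, ACTB is cytoplasmic beta-actin, HPRT1 recycles purines, GUSB is a lysosomal hydrolase, PPIA is a protein-folding enzyme, YWHAZ is a 14-3-3 adaptor, TFRC takes up iron and TBP is a general transcription factor. Several of these genes also respond to growth, oxygen, iron or cell shape in other settings.

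The libraries held between 8429142 and 10286552 counts on genes, with 12.4% to 15.4% on mitochondrial genes. The correlation of log2 levels across genes was 0.989 within MET+, 0.991 within MET-KO and 0.854 to 0.857 between the groups (Pearson, across genes, which are not independent replicates). MET itself had 338 and 336 CPM (counts scaled to a common library total) in MET+ and 84.4 and 88.9 CPM in MET-KO libraries, read at the 3' end of the transcript, so that these values are no check of the edit itself. In addition, 12 genes of the Y chromosome had at least 10 counts in both MET-KO libraries and 0 in both MET+ libraries, so the groups differed in more than MET. Of 9 markers of colon epithelium, CDX1 was at 0, and of the 8 tested, 2 were higher and 5 lower. The summed level was 9648 and 9682 CPM in MET+ against 8321 and 7337 CPM in MET-KO cells, most of it from the keratins KRT18, KRT19 and KRT8. EPCAM was lower (log2 fold change -1.11) and CDX2 higher (1.04), LGALS4 had 89 and 107 counts in MET+ and 1 count in each MET-KO library, and KRT20 had 0 counts in MET+ and 27 and 28 in MET-KO libraries. By contrast, the 6 fibroblast markers summed to at most 4.24 CPM, the 5 immune markers to at most 9.75 CPM and the 3 endothelial markers to at most 0.924 CPM. The part of these differences in the results was not tested.

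Of the 9 reference genes, 5 differed between MET-KO and MET+ cells, 2 higher (ACTB and PPIA) and 3 lower (GAPDH, TBP and TFRC), at an adjusted p under 0.05 (edgeR's quasi-likelihood test, adjusted by the Benjamini-Hochberg method over all tested genes). This share of 55.6% lay beside 54.1% of all tested genes called in either direction (27.2% higher and 26.9% lower), and 63.3% among the 4835 genes whose mean log2 CPM was 5 or more. The values of the groups did not overlap for 6 of the 9 genes, against 75.6% of all tested genes. An absolute log2 fold change under 0.2 was found for 3 of them, against 23.8% of all tested genes. Their median log2 fold change was -0.01, beside 0.01 over all tested genes, and their median absolute log2 fold change was 0.31, beside 0.48. The extremes, ACTB and TBP, were 1.64 apart on the log2 scale. Because the RNA came from bulk cultures, a change in every cell and a change in the share of cells that express a gene cannot be told apart.

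**Figure D1:**
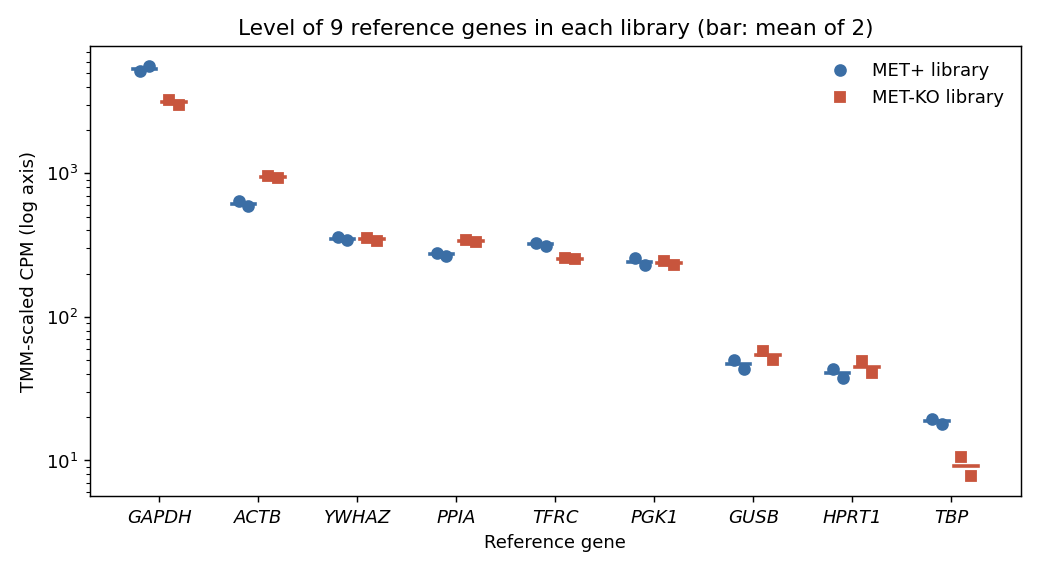
Level of each of the 9 reference genes in TMM-scaled CPM (vertical log axis), ordered by mean level, with 1 point per library (blue circles MET+, red squares MET-KO) and a bar at the mean of 2. GAPDH, TFRC and TBP lie lower and ACTB and PPIA higher in both MET-KO libraries, whereas YWHAZ and PGK1 overlap.

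The 9 genes covered a wide range of levels. All levels are TMM-scaled CPM, and since the libraries read 1 tag near the end of each transcript, they were not divided by length. GAPDH was the highest, 286 times the level of TBP in MET+ and 338 times in MET-KO cells. ACTB followed, then YWHAZ, PPIA, TFRC and PGK1, which lay close together between 229 and 358 CPM in every library, then GUSB and HPRT1, and TBP was the lowest. Within the middle group the order was not fixed: TFRC lay above PPIA in both MET+ libraries and below it in both MET-KO libraries. GUSB lay above HPRT1 in each of the 4 libraries, though the ranges of these neighbours overlapped in MET+ cells.

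GAPDH, the glyceraldehyde-3-phosphate dehydrogenase of glycolysis (ENSG00000111640, chr12:6533927-6538374, plus strand), had 5187 and 5555 CPM in MET+ and 3222 and 3011 CPM in MET-KO libraries. The lower MET+ library was well above the higher MET-KO library. The mean fell from 5371 ± 260 CPM (SD, n = 2) to 3117 ± 150 CPM (SD, n = 2), a log2 fold change of -0.79 (standard error 0.10, 95% interval -0.99 to -0.58, Benjamini-Hochberg adjusted p = 4.67e-08 by edgeR's quasi-likelihood test). MET-KO cells thus held 58.0% of the MET+ level of this gene, and as it supplied most of the counts of the 9 genes, their summed share of a library was 0.703% and 0.701% in MET+ and 0.553% and 0.551% in MET-KO libraries.

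PGK1, phosphoglycerate kinase, the next enzyme of the pathway (ENSG00000102144, chrX:77910739-78129296, plus strand), behaved otherwise. It had 256 and 229 CPM in MET+ and 245 and 232 CPM in MET-KO libraries, so that both MET-KO values fell between the MET+ values. The means were 242 ± 18.8 and 238 ± 9.71 CPM (SD, n = 2 per group), with a log2 fold change of -0.02 (standard error 0.09, 95% interval -0.21 to 0.17, Benjamini-Hochberg adjusted p = 0.858 by edgeR's quasi-likelihood test). Its annotated span overlaps ATP7A on the same strand, which held 31 to 65 counts per library against 2115 to 2515 for PGK1.

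Among 15 tested genes of glycolysis other than these, 2 rose and 6 fell, and the median log2 fold change was -0.13. Each difference quoted for genes of this and the following lists is a log2 fold change of MET-KO over MET+. Counts of higher and lower genes in these lists stand beside 27.2% called higher and 26.9% called lower over all tested genes. The lower ones included ALDOC (-5.47), an aldolase, ENO2 (-1.35), an enolase, and PKM (-1.16), pyruvate kinase, while hexokinase HK2 (0.00) was nearest to 0. ALDOA was listed at 0 counts in all 4 libraries. TPI1, triosephosphate isomerase, named after its value was seen, lies 0.333 Mb from GAPDH and had a log2 fold change of -0.76, close to that of GAPDH. ENO2 lies 0.383 Mb from GAPDH. Of the tested genes nearest to GAPDH, NCAPD2 (-0.65) and MRPL51 (-0.50) were lower and CHD4 (-0.03) was not called. The other listed glycolysis genes on chromosome 12 went otherwise, with PFKM (0.78) higher and LDHB (-0.13) not called.

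ACTB, cytoplasmic beta-actin (ENSG00000075624, chr7:5527147-5563784, minus strand), moved opposite to GAPDH. It had 641 and 590 CPM in MET+ and 960 and 923 CPM in MET-KO libraries, with both MET-KO values well above both MET+ values. The mean rose from 616 ± 35.8 to 941 ± 26.4 CPM (SD, n = 2 per group), and the log2 fold change was 0.61 (standard error 0.09, 95% interval 0.43 to 0.80, Benjamini-Hochberg adjusted p = 8.73e-07 by edgeR's quasi-likelihood test). Its 2 overlapping antisense genes held at most 4 counts in any library.

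Of the 6 other actin genes, only 2 had enough counts to be tested, and they moved in opposite directions. ACTG1, the other cytoplasmic actin, had 5609 and 5704 CPM in MET+ and 3934 and 3382 CPM in MET-KO libraries, a fall on which the groups did not overlap (log2 fold change -0.63, Benjamini-Hochberg adjusted p = 4.16e-06 by edgeR's quasi-likelihood test). ACTA2, smooth muscle alpha-actin, rose (1.55) from 10.0 and 9.34 CPM to 32.3 and 24.5 CPM. Thus the actin that is used as a reference rose while the actin with the higher count fell.

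PPIA, cyclophilin A, a peptidyl-prolyl isomerase that assists protein folding (ENSG00000196262, chr7:44796680-44824564, plus strand), had 280 and 268 CPM in MET+ and 342 and 335 CPM in MET-KO libraries. Its replicates differed by 4.41% in MET+ and 2.03% in MET-KO cells, and the groups did not overlap. The mean rose from 274 ± 8.36 to 339 ± 4.81 CPM (SD, n = 2 per group), and the log2 fold change was 0.31 (standard error 0.09, 95% interval 0.13 to 0.49, Benjamini-Hochberg adjusted p = 0.00418 by edgeR's quasi-likelihood test). Without MET+ replicate 2 the log2 fold change was 0.27 and the adjusted p from edgeR with the same adjustment was 0.0944, so this call needed that library. PPIA has 88 named pseudogenes, which together held 0.907% to 3.76% as many counts as the gene itself.

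Of the 12 other cyclophilins, all tested, 3 were higher and 4 lower, with a median log2 fold change of -0.08. PPIL3 (-0.99), a spliceosomal cyclophilin, PPIE (-0.58), another, and PPIB (-0.56), that of the endoplasmic reticulum, were the lower ones with the largest differences, and PPID (-0.01) was nearest to 0.

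YWHAZ, the zeta isoform of the 14-3-3 proteins, which bind phosphorylated partners (ENSG00000164924, chr8:100916525-100953388, minus strand), had 358 and 343 CPM in MET+ and 357 and 340 CPM in MET-KO libraries. The groups covered almost the same range. The means were 351 ± 10.7 and 349 ± 11.4 CPM (SD, n = 2 per group), and the log2 fold change was -0.01 (standard error 0.09, 95% interval -0.19 to 0.17, Benjamini-Hochberg adjusted p = 0.94 by edgeR's quasi-likelihood test), and over the alternative settings it lay between -0.048 and 0.090. YWHAZ and PGK1 were the 2 of 9 genes whose whole interval lay within 0.25 of 0 on the log2 scale. This was reached by 1.69% of all tested genes, and by 4.82% of those whose mean log2 CPM was 5 or more. The measure depends on the level: the 233 genes that reached it all had a mean log2 CPM of 5 or more. The intervals of HPRT1 and TBP were wider than this range, so neither could reach it at any log2 fold change.

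The other 6 isoforms of the family were less even. SFN, the sigma isoform of epithelia, was lower (-1.33), from 1063 and 1371 CPM in MET+ to 583 and 386 CPM in MET-KO libraries. YWHAG, on chromosome 7, was higher (1.11), and so was YWHAE (0.61). In all, 2 rose and 2 fell, and YWHAH (-0.13) was nearest to 0 without passing the test.

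TBP, the TATA-binding protein that nucleates transcription initiation (ENSG00000112592, chr6:170554302-170572870, plus strand), had 19.5 and 18.1 CPM in MET+ and 10.6 and 7.83 CPM in MET-KO libraries. All 4 values were low, from 161 and 176 counts in MET+ to 108 and 85 counts in MET-KO libraries, yet the groups did not overlap. The mean fell from 18.8 ± 0.983 to 9.21 ± 1.95 CPM (SD, n = 2 per group), and the log2 fold change was -1.03 (standard error 0.19, 95% interval -1.42 to -0.64, Benjamini-Hochberg adjusted p = 3.06e-05 by edgeR's quasi-likelihood test). It was the largest change among the 9 genes and also the least precise, and it lay between -1.26 and -0.82 over the alternative settings.

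The TBP-associated factors, which form the TFIID complex with TBP, did not move as a block: with the TBP paralog, 4 of 16 genes were higher and 6 lower, and their median log2 fold change was 0.02. Among those with a mean log2 CPM of 3 or more, TAF9B (0.95) and TAF10 (0.62) were higher and TAF1 (-0.68), the largest subunit, was lower. TAF5 (-1.04), named after its value was seen, lay below that level and was also lower. The paralog TBPL1 had a log2 fold change of -0.03.

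HPRT1, the purine salvage enzyme hypoxanthine phosphoribosyltransferase (ENSG00000165704, chrX:134460153-134520513, plus strand), had 43.6 and 37.8 CPM in MET+ and 48.9 and 40.6 CPM in MET-KO libraries. The groups overlapped. The means were 40.7 ± 4.14 and 44.8 ± 5.88 CPM (SD, n = 2 per group), and the log2 fold change was 0.14 (standard error 0.12, 95% interval -0.11 to 0.39, Benjamini-Hochberg adjusted p = 0.357 by edgeR's quasi-likelihood test). It was counted at 361 to 499 reads per library, and its interval was wider than that of PGK1. Of 13 other genes of purine synthesis and salvage, 3 were higher and 3 lower, with a median log2 fold change of 0.03. These were led by PNP (-0.71), purine nucleoside phosphorylase, ADA (-0.52), adenosine deaminase, and PPAT (0.39), the first committed enzyme of the synthesis pathway, with IMPDH1 (0.02) nearest to 0.

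GUSB, lysosomal beta-glucuronidase (ENSG00000169919, chr7:65960684-65982314, minus strand), had 50.1 and 43.5 CPM in MET+ and 57.8 and 50.3 CPM in MET-KO libraries. The lower MET-KO library lay just above the higher MET+ library. The means were 46.8 ± 4.69 and 54.1 ± 5.35 CPM (SD, n = 2 per group), and the log2 fold change was 0.21 (standard error 0.12, 95% interval -0.03 to 0.45, Benjamini-Hochberg adjusted p = 0.133 by edgeR's quasi-likelihood test). Its 11 named pseudogenes held 3.05% to 13.9% as many counts as GUSB, and 7.76% of the 50-base windows in the last 500 bases of its transcript were also found in transcripts of other genes. Such windows made up 11.1% for GAPDH and 11.8% for PGK1 and 0% for the other 6 genes, and reads from them could be lost or split in counting. Of 10 tested lysosomal glycosidases besides GUSB, 5 were higher and 0 lower by edgeR, with a median log2 fold change of 0.33. There were also 0 lower at an unadjusted p under 0.05 and by DESeq2. Over all tested genes, 27.2% were called higher and 26.9% lower, and whether this list differs from them was not tested. GAA (1.23), acid alpha-glucosidase, NAGLU (1.14), which degrades heparan sulfate, and FUCA1 (1.13), a fucosidase, were among the higher ones.

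TFRC, the transferrin receptor through which cells take up iron (ENSG00000072274, chr3:196027183-196082189, minus strand), had 327 and 313 CPM in MET+ and 257 and 252 CPM in MET-KO libraries. The groups did not overlap and the replicates of each were close. The mean fell from 320.0 ± 10.2 to 254 ± 3.48 CPM (SD, n = 2 per group), and the log2 fold change was -0.33 (standard error 0.09, 95% interval -0.51 to -0.15, Benjamini-Hochberg adjusted p = 0.00208 by edgeR's quasi-likelihood test). Of 12 other tested genes of iron handling, 3 were higher and 5 lower, with a median log2 fold change of -0.10. The liver-type receptor TFR2 (1.16) and HMOX1 (0.89), the haem oxygenase, were higher, whereas IREB2 (-0.92), which encodes an iron regulatory protein that binds TFRC mRNA, was lower, and the zinc and iron carrier SLC39A14 (0.03) was nearest to 0.

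The promoters of PPIA, which rose, and PGK1, which was not called, are shown because both hold ACGTG, the core letters of the hypoxia response element. Each sequence begins 250 bases before the RefSeq start on GRCh38.p14 and ends before the first exon annotated there in GENCODE (chr7:44796431-44796679 and chrX:78103998-78104173, both plus strand). Capitals mark ACGTG on either strand (written CACGT where it lies on the other strand) and, on the strand of the gene, TATAAA.
PPIA: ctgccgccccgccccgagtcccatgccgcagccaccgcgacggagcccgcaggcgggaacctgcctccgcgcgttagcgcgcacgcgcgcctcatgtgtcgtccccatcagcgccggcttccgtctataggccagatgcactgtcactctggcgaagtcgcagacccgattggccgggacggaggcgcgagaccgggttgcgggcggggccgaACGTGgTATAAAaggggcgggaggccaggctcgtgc
PGK1: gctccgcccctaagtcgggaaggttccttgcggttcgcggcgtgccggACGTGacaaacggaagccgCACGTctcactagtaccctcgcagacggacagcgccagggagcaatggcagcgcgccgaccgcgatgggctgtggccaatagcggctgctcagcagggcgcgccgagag
In the 250 bases before the start, ACGTG was found in 4 of the 7 reference genes with an entry, GAPDH, PPIA, TFRC and PGK1, and in 18.5% of 35116 promoters. TATAAA was found for PPIA and TFRC, starting at -31 and -33 from the gene's start, and in 6.80% of all promoters. Genes with ACGTG were thus higher (PPIA), lower (GAPDH and TFRC) and not called (PGK1), and those with TATAAA were higher (PPIA) and lower (TFRC). HPRT1, TBP and GUSB held neither run of letters, and ACTB and YWHAZ had no entry.

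How far each reference gene kept its ratio to the others was described by the SD of the log2 ratio of 2 genes over the 4 libraries, which does not depend on how the libraries are scaled. Averaged over the other 8 genes, this SD was smallest for PGK1 (0.264) and YWHAZ (0.265), followed by HPRT1 (0.284), GUSB (0.292), PPIA (0.327) and TFRC (0.328). It was larger for ACTB (0.471), GAPDH (0.498) and TBP (0.633). When the gene with the largest mean SD was removed at each step, TBP left first, then GAPDH, ACTB, TFRC, PPIA, GUSB and HPRT1, and the pair of YWHAZ and PGK1 remained. Single ratios are given as values without a test. An exact permutation test of 2 against 2 libraries cannot give a p below 0.333.

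The ratio of YWHAZ to PGK1 was 1.40 and 1.50 in MET+ and 1.45 and 1.47 in MET-KO libraries (SD of the log2 ratio 0.0405), the steadiest of the 36 pairs. HPRT1 and GUSB, both counted at 590 reads or fewer, came next (0.0497), although the ratio was 0.870 and 0.868 in MET+ and 0.846 and 0.808 in MET-KO libraries and so did not overlap. In contrast, the ratio of GAPDH to ACTB, the usual choices for loading controls, was 8.09 and 9.41 in MET+ and 3.36 and 3.26 in MET-KO libraries. The ratio was thus 2.64-fold lower in MET-KO cells. The largest change was that of ACTB to TBP, from 33.0 and 32.7 to 90.6 and 118, or 3.15-fold.

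Over the 36 pairs, the ratio changed by more than 1.5-fold in 17, and the groups overlapped in 5. The pairs share genes and are not independent of each other. Pairs of other tested genes were not counted, so whether reference genes differ from them in this was not tested. Taken singly, 75.6% of all tested genes had groups that did not overlap. The lower genes GAPDH and TBP were among the overlapping pairs: their ratio was 267 and 308 in MET+ and 304 and 385 in MET-KO libraries, 1.20-fold apart on average. GAPDH fell and ACTB rose, and the mean of their log2 fold changes was -0.09.

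**Figure D2:**
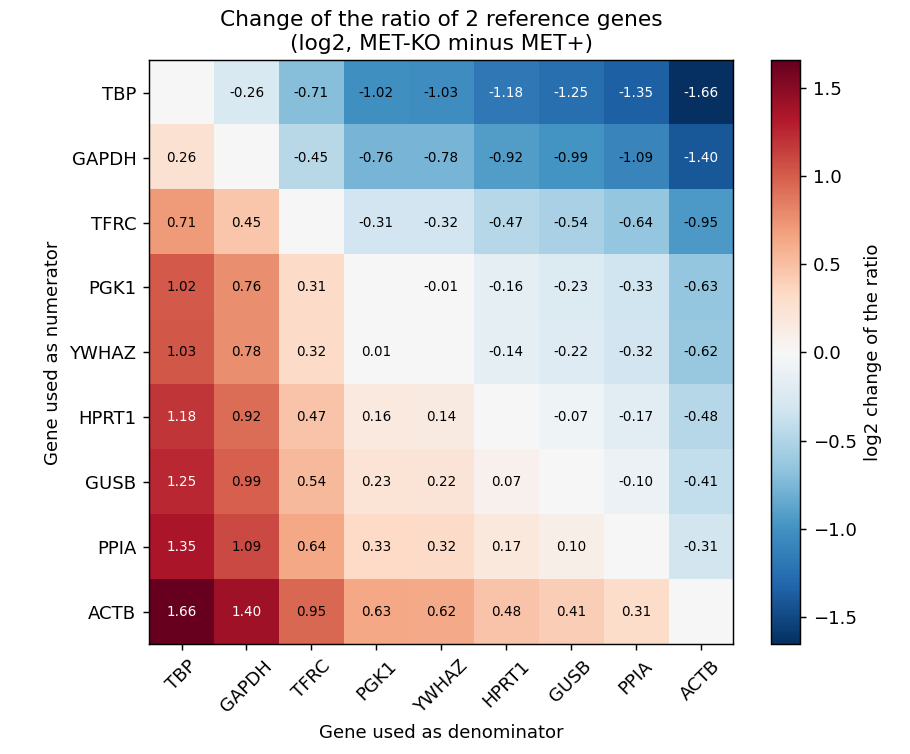
Change of the ratio of 2 reference genes, as MET-KO minus MET+ on the log2 scale, for each gene as numerator (rows) and denominator (columns), with red for higher and blue for lower in MET-KO cells. The ratio of YWHAZ to PGK1 is near 0 (0.01) and that of ACTB to TBP is the largest (1.66).

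Quantitative PCR in the study was normalised on B2M, the light chain of MHC class I. B2M had 84.6 and 77.2 CPM in MET+ and 93.1 and 91.3 CPM in MET-KO libraries. Both MET-KO values were above both MET+ values. Its log2 fold change was 0.19 (standard error 0.10, 95% interval -0.01 to 0.40, Benjamini-Hochberg adjusted p = 0.109 by edgeR's quasi-likelihood test), an estimate between those of HPRT1 and GUSB.

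To show what the choice of reference does to a ratio, FLNA, ACTN4, RAC1 and SUN1, actin-associated genes, were divided by each reference gene within each library. The PCR of these genes in the study compared other cells, such as MET-KO cells with and without TPR-MET, an active MET fusion, so the ratios here are computed from the RNA sequencing alone. FLNA, a filamin that crosslinks actin, was 3.49-fold higher in MET-KO cells over TBP, 2.92-fold over GAPDH, 2.13-fold over TFRC, 1.72-fold over PGK1 and 1.71-fold over YWHAZ. Over B2M it was 1.49-fold higher, and over ACTB 1.11-fold, where the groups overlapped. ACTN4, alpha-actinin 4, ranged in the same way from 3.41-fold over TBP to 1.67-fold over YWHAZ and 1.08-fold over ACTB, again with overlapping groups for ACTB.

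RAC1, a small GTPase, changed direction with the reference. Its ratio was 2.23-fold higher over GAPDH, 1.30-fold higher over YWHAZ, 1.13-fold higher over B2M and 1.05-fold higher over PPIA. Over ACTB it was 0.846 of the MET+ ratio, lower in both MET-KO libraries. RAC1 lies 0.844 Mb from ACTB on chromosome 7. SUN1, a protein of the inner nuclear membrane, was 2.43-fold higher over GAPDH and 1.42-fold over YWHAZ, but 0.923-fold over ACTB, where the groups overlapped. SUN1 also lies on chromosome 7, within 5 Mb of ACTB.

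The targeted gene itself shifted as well. The MET transcript in MET-KO cells was 53.0% of its MET+ level over TBP, 44.3% over GAPDH, 25.9% over YWHAZ, 22.5% over B2M and 16.8% over ACTB. Over the geometric mean of GAPDH and ACTB it was 27.3%, and over that of all 9 genes 27.6%.

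**Figure D3:**
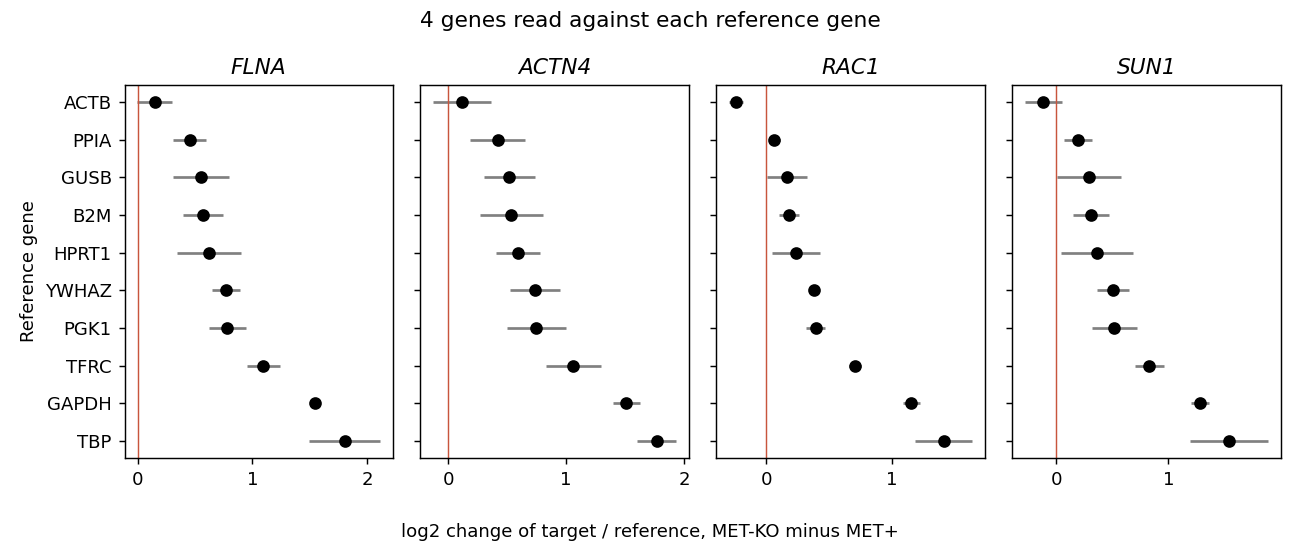
Change of FLNA, ACTN4, RAC1 and SUN1 after division by each of the 9 reference genes or B2M, as MET-KO minus MET+ on the log2 scale (horizontal axes), with points for the difference of group means and lines from the smallest to the largest difference between 1 MET-KO and 1 MET+ library. All 4 genes read highest over TBP and GAPDH and lowest over ACTB, where RAC1 and SUN1 lie below 0, the groups overlapping for SUN1.

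The shift of each reference gene was then set beside that of its chromosome, since in these libraries the median log2 fold change of a chromosome ran from -0.52 (chromosome 14) to 0.50 (chromosome 7). Medians beside a gene leave that gene out, and its difference from the median is called the offset. ACTB, PPIA and GUSB all lie on chromosome 7, where 54.7% of tested genes were called higher in MET-KO cells. ACTB was 0.11 above the chromosome's median (0.035 without MET+ replicate 2), whereas PPIA was 0.20 and GUSB 0.30 below it. The rise of ACTB was thus at percentile 56.0 of its chromosome, and that of PPIA at percentile 38.2.

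GAPDH lies on chromosome 12, where 45.1% of tested genes were called lower and the median was -0.31. Its offset was -0.47, at percentile 25.6 of the chromosome, and it narrowed to -0.26 against the 90 other tested genes within 5 Mb, of which 46 were called lower and 16 higher. TBP showed the widest gap between chromosome and neighbourhood. Chromosome 6 had a median of 0.08, from which TBP was offset by -1.11 (percentile 9.07). Yet the 16 other tested genes within 5 Mb had a median of -0.91, with 12 called lower and 1 called higher. Against these genes the offset of TBP was -0.11. Its nearest tested neighbours, PDCD2 (-0.79), 0.0164 Mb away, and PSMB1 (-1.29), a proteasome subunit 0.0194 Mb away, were both called lower, both named for their position.

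**Figure D4:**
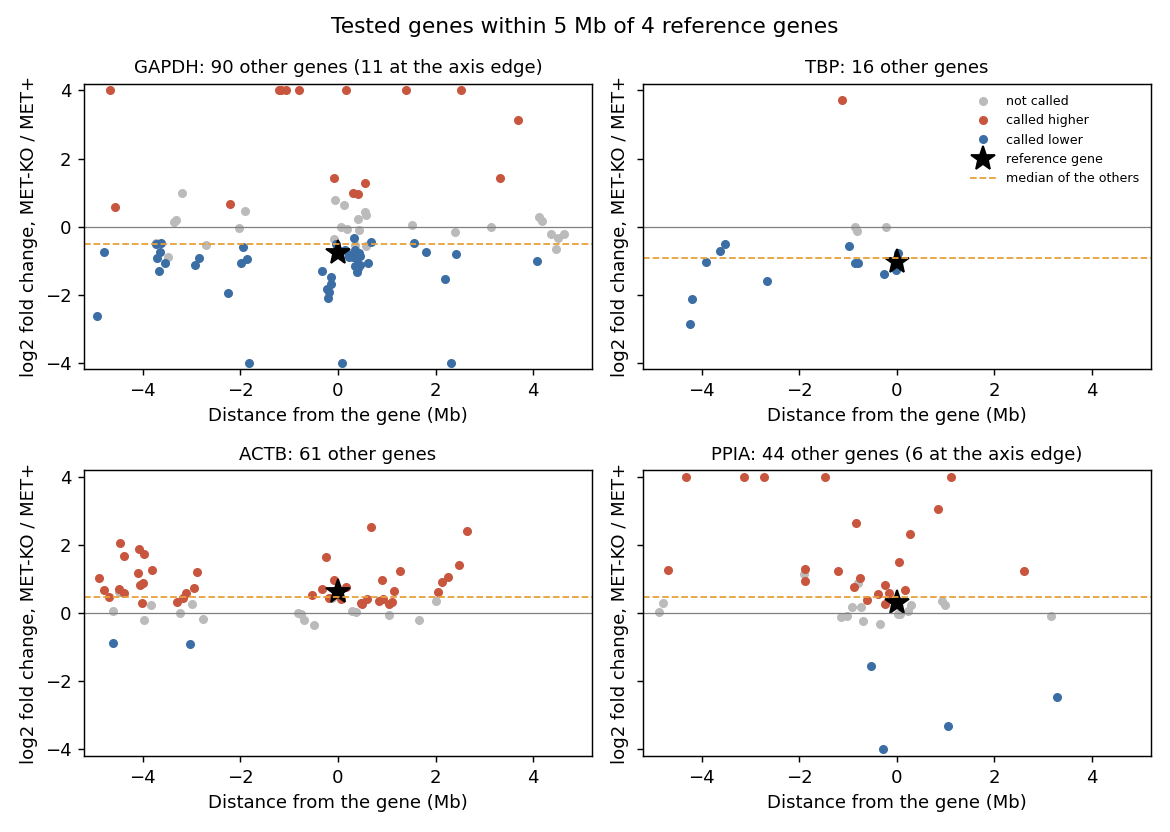
log2 fold change of tested genes (vertical axes, cut at 4 in either direction) by distance in Mb from GAPDH, TBP, ACTB and PPIA, with grey points not called, red called higher, blue called lower, a star for the reference gene and a dashed line at the median of the others. GAPDH and TBP lie among mostly lower genes, with medians of -0.52 and -0.91, and ACTB and PPIA among mostly higher ones, with medians of 0.49 and 0.48.

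TFRC went against the median of its surroundings. This median was 0.15 over chromosome 3 and 0.13 over 50 genes within 5 Mb, of which 16 were called higher and 5 lower. The offset of TFRC was thus -0.48 and -0.46, respectively. Its neighbours were mixed: of the called genes nearest to it, TNK2 (-1.27) and MUC20-OT1 (-0.75) were lower, and TCTEX1D2 (1.64) and UBXN7 (0.62) higher. The genes that were not called outside chromosome 7 lay on chromosomes with medians close to 0. PGK1 and HPRT1 on chromosome X had offsets of -0.01 and 0.16, and YWHAZ on chromosome 8 had an offset of -0.10. However, the 39 genes around YWHAZ had a median of 0.26, with 17 called higher and 6 lower. From this median the offset of YWHAZ was -0.27. B2M had an offset of 0.62 from chromosome 15, whose median was -0.43.

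In all, 5 of the 9 genes had the sign of their chromosome's median and 6 that of the genes within 5 Mb. The median absolute value was 0.31 for the log2 fold changes, 0.20 for the offsets from the chromosome and 0.17 for those from the neighbourhood, although for single genes the offset was smaller than the log2 fold change in 4 of 9 against the chromosome and 4 of 9 against the neighbourhood. Of the 9 genes, 7 lay within the quartiles of their chromosome and 8 within those of their neighbourhood. Such ranges hold the middle of the genes by definition. The measures above are descriptions of 9 genes in the same libraries. They were not computed for all tested genes, so whether reference genes differ in them was not tested. Whether gene copy number differs between the MET+ and MET-KO cells was also not tested.

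**Figure D5:**
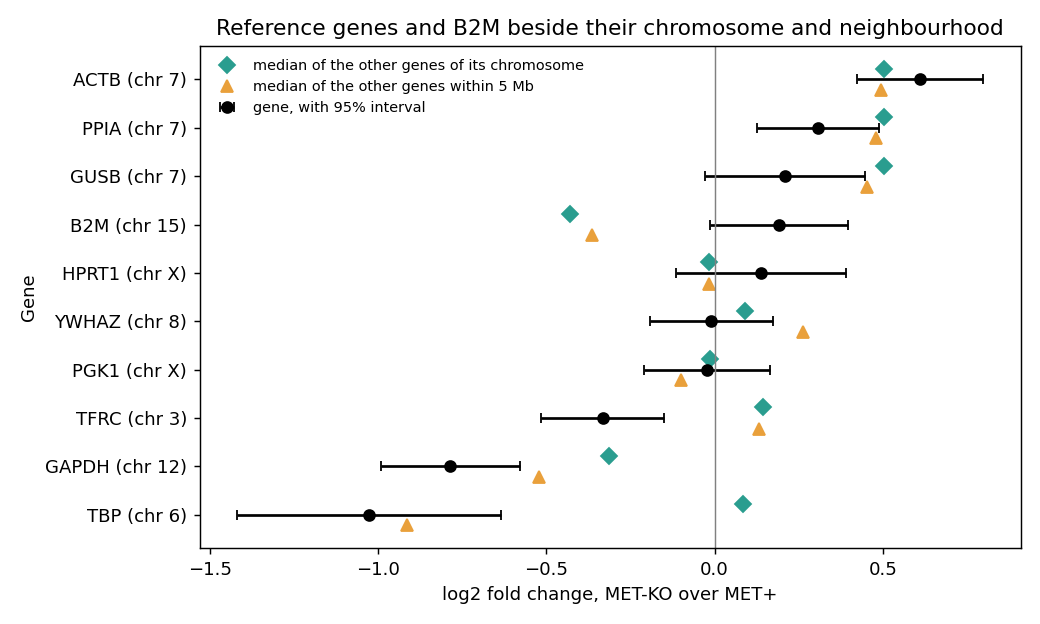
log2 fold change of MET-KO over MET+ (horizontal axis) for the 9 reference genes and B2M, with 95% intervals, beside the median of the other tested genes of the chromosome (green diamonds) and of those within 5 Mb (orange triangles). For TBP and PPIA the median within 5 Mb (-0.91 and 0.48) but not that of the chromosome (0.08 and 0.50) lies inside the interval. For YWHAZ the median of chromosome 8 (0.09) but not that within 5 Mb (0.26) does. For GAPDH, GUSB, TFRC and B2M neither does.

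Further reference genes were read from a list of 34 other classic ones and a list of 11 proposed from surveys of RNA sequencing. Of the 34, 4 were higher and 14 lower (median log2 fold change -0.10), and of the 11, 2 were higher and 4 lower (median -0.07). In either direction, 18 of the 34 and 6 of the 11 were called, beside 54.1% of all tested genes (27.2% higher and 26.9% lower). CDKN1A, a cell cycle inhibitor found on some reference panels, was higher (1.70), and UBE2D2 (-1.21), a ubiquitin-conjugating enzyme, EIF2B1 (-0.90), a translation factor subunit, and REEP5 (-1.02), a protein of the endoplasmic reticulum, were lower. EMC7 (-0.71) was lower and the proteasome subunit PSMB4 (0.61) higher, while the ribosomal protein RPL13A (0.01) and the glycolytic enzyme GPI (-0.01) were nearest to 0. Of the 13 of these 45 genes on chromosomes with a median under -0.3, 10 were lower and 0 higher, and of the 32 on other chromosomes, 8 were lower and 6 higher by edgeR (0 of the 13 were higher also at an unadjusted p under 0.05 and by DESeq2). These chromosomes (5, 12, 14 and 15) were picked by their medians. Over all their tested genes, 51.5% were called lower and 14.7% higher. On the chromosomes other than these and 7, 22.6% were called lower and 28.2% higher. None of the 45 genes lies on chromosome 7.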

How the data were processed

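As deposited by the authors, each of the 4 files holds raw counts of reads per gene from QuantSeq 3' mRNA libraries, with no normalization. The submitters' processing notes name cutadapt 1.16, STAR 2.5.4a, featureCounts 1.6.2, DESeq2 1.18.1 and GRCh38, while the annotation, the strand setting and the treatment of reads with several matches are not given in the sources used here. Reads were not collapsed by molecular identifiers. Gene names, positions and pseudogenes were taken from GENCODE 29, in which 58552 of 58825 gene IDs were found; 99 spike-in rows held 0 counts and were left out.

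MET-KO and MET+ libraries (2 of each) were compared with edgeR 4.0.16 under R 4.3.3 (filterByExpr by group, TMM, glmQLFTest, Benjamini-Hochberg adjustment over 13801 genes, threshold 0.05). The standard error is the log2 fold change divided by the square root of the F statistic, and the 95% interval uses its degrees of freedom. The labels call the replicates biological, and as the number of clones is not given, the p-values measure only the spread between these libraries, which may be less than that between independent knockouts. The depth of 8429142 to 10286552 counts per library limits the precision of low genes such as TBP.

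Named genes are the 9 members, B2M, MET, 4 actin-associated genes and, from each list, up to 3 called genes with the largest change (mean log2 CPM 3 or more), and the 1 nearest to 0. The last of these is not reported here for the lysosomal glycosidases. The members and the lists were chosen with earlier results of these data known. Alternatives were other scalings, DESeq2 1.42.0, other filters, a replicate block, thinning to the smallest library, adding pseudogene counts, leaving out each library and, added after seeing the data, leaving out mitochondrial genes. Promoter sequences are RefSeq's on GRCh38.p14 (7 of 9 members matched). Tables and plots were made with Python 3.11.15 and matplotlib 3.10.9.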

Additional observations from a re-analysis of the deposited data

How the results depend on the processing

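The number of tested genes called, 7467, lay between 5760 (DESeq2) and 7547 (no filter), and between 6289 and 7083 when each library was left out in turn. The calls of GAPDH, ACTB, TBP and TFRC held under each of the 14 alternatives. The number of reference genes called was 5, except for 6 with library totals alone (GUSB 0.31, adjusted p = 0.0322 from edgeR with Benjamini-Hochberg adjustment, range over its log2 fold changes 0.10 to 0.31) and 4 without MET+ replicate 2 (PPIA). Library totals alone also moved the median of all tested genes from 0.01 to 0.11, and the calls were 4361 higher and 3000 lower, with upper quartile scaling 4145 and 3357, beside 3755 and 3712. The sign turned only for genes that were not called: with upper quartile scaling, library totals alone and at least 10 counts in every library, the log2 fold change was 0.048, 0.090 and 0.028 for YWHAZ and 0.035, 0.076 and 0.016 for PGK1, and after thinning it was 0.0041 for YWHAZ. When each library was left out in turn, it ranged from -0.048 to 0.027 for YWHAZ, from -0.11 to 0.060 for PGK1 and from -0.0035 to 0.27 for HPRT1. The cause was not tested.

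Offsets were also computed from genes that were not called. Such genes were picked by their result and their medians lie near 0, so these offsets approach the log2 fold changes by construction and are not read here. Leaving out each library in turn moved the offset of TBP between -1.32 and -0.90, HPRT1 between 0.024 and 0.28, GUSB between -0.42 and -0.19, ACTB between 0.035 and 0.14, YWHAZ between -0.15 and -0.051 and PGK1 between -0.085 and 0.051.

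With the replicate number as a block, 7055 genes and 5 reference genes were called. The labels link same-numbered libraries only by that number. The correlation across genes of their deviations from the group means was -0.02. With 2 libraries per group, both same-numbered pairs give this same value by construction. Depth and 2 libraries per group limit TBP, HPRT1 and GUSB most.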

Other observations

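Among the 1113 tested genes whose mean log2 CPM was 7 or more, the SD of the log2 CPM over the 4 libraries was smaller than that of YWHAZ for 21 genes, which puts YWHAZ at percentile 1.89. PGK1 was at percentile 11.2, PPIA at 40.9, TFRC at 44.5, ACTB at 67.9 and GAPDH at 75.6. The 5 genes with the smallest SD, picked on these values, were CACYBP, CCDC25, ATP5F1A, SNU13 and RPL38. CACYBP, which encodes a protein that binds calcyclin, had 135 CPM in both MET+ libraries and 135 and 133 CPM in the MET-KO libraries (SD 0.0111). ATP5F1A, the alpha subunit of mitochondrial ATP synthase, had 517 and 526 CPM in MET+ and 525 and 512 CPM in MET-KO libraries. Its partner in the enzyme, the beta subunit ATP5F1B on chromosome 12, itself a classic reference gene and named after its value was seen, had a log2 fold change of -0.88. Genes picked for a small SD over 4 libraries need not keep it in other libraries.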
